A study of Mus musculus with 48 samples.

Results

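The genes described here are 10 genes of the NRF2 and glutathione system measured by RNA sequencing in mouse hearts: Nfe2l2, Gclc, Gclm, Gss, Gsr, Txnrd1, Srxn1, Nqo1, Hmox1 and Gstm7. They were chosen by symbol, with earlier results of these data known. Matched to the Ensembl identifiers of the deposited count table, they are 10 of the 53700 genes it lists. All 10 were among the 16623 genes kept by a filter on low counts. The hearts, taken as both ventricles together, came from 48 male C57BL/6 mice, 6 in each of 8 groups. Mice labelled CBK carry a floxed Bmal1 gene (symbol Arntl in the annotation used for names) and Cre recombinase under the MHCα promoter, which is active in heart muscle cells, and their littermates, BMAL1 FLOX, carry the floxed Bmal1 gene without Cre. CEK mice carry a floxed E4bp4 gene (symbol Nfil3) with the same Cre, against E4BP4 FLOX littermates without it. CBK/CEK mice carry both floxed genes with Cre, against BMAL1/E4BP4 FLOX littermates without Cre. Cre CON mice carry Cre without a floxed gene, against wild-type littermates (WT). The labels used here give neither the age of the mice nor the time of day at which hearts were taken. Both floxed genes are homozygous and Cre is carried on 1 allele, and all littermate groups but WT carry the floxed alleles as well. Cre is driven in heart muscle cells, while the libraries hold RNA of all cells of the ventricles, and in such bulk samples fewer cells of a type and less RNA per cell cannot be told apart.

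NRF2, the product of Nfe2l2, is a transcription factor that is held at low levels by KEAP1 and is released by oxidants and electrophiles. It then binds antioxidant response elements together with small MAF proteins and raises genes for glutathione synthesis, thioredoxin reduction, quinone reduction and conjugation. Glutathione is the main small thiol of the cell, and in heart muscle it and the thioredoxin system remove peroxides that come largely from mitochondria. BMAL1 is an activator of the circadian clock that binds E-box sequences with CLOCK, and E4BP4 is a repressor that binds D-box sequences.

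Depth ran from 13128833 to 28407868 gene counts per library, with WT replicate 1 apart at 126338949, and each of the 10 genes had at least 41 counts in every library. Levels below are CPM, that is counts scaled to a common library size with TMM factors. As a check of the labels, Nfil3 stood at 0.644 ± 0.0948 CPM in CEK against 8.07 ± 1.40 CPM in E4BP4 FLOX, and at 1.84 ± 0.649 CPM in CBK/CEK against 9.34 ± 1.65 CPM in BMAL1/E4BP4 FLOX (SD, n = 6 each). Arntl went the other way, with 8.40 ± 2.41 CPM in libraries labelled CBK against 1.04 ± 0.381 CPM in BMAL1 FLOX, and 11.8 ± 0.894 CPM in libraries labelled CBK/CEK against 0.987 ± 0.327 CPM in BMAL1/E4BP4 FLOX. A count over the whole gene takes in exons outside the floxed part and does not measure its loss, so CBK and CBK/CEK below mean the libraries so labelled. Nfil3, which is not floxed in CBK, was called higher in that line (edgeR adjusted p = 6.48e-14). It stood at 38.9 ± 5.20 CPM in CBK against 10.9 ± 2.03 CPM in BMAL1 FLOX. Myh6, the heavy chain gene of heart muscle, was not called in any line. Mitochondrial transcripts took 9.55% to 22.6% of counts in CBK and 18.0% to 25.6% in BMAL1 FLOX. For their composition 5 libraries were set apart: BMAL1/E4BP4 FLOX replicate 6, replicates 4 and 5 of CEK, and replicates 3 and 5 of CBK. A gene without a symbol took 34.8% of counts in the first of these and 13.3% in CBK replicate 3. It took 4.58% to 33.4% in CEK and 6.18% to 15.3% in E4BP4 FLOX, and elsewhere at most 2.87%. CEK replicates 1 and 6, with 18.4% and 24.4%, were not among the 5. Results without those 5 libraries are given where they differ.

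Start-site windows of 300 bases, from 250 before to 50 after the annotated start, were available in RefSeq (build GRCm38.p6) for 7 of the 10 genes, in 10 windows. The windows of the 3 genes that differed between groups and of Nfe2l2 are printed because NRF2 and the products of both floxed genes act through short DNA elements. They are read 5′ to 3′ on the strand of the gene, with matches to either form of the antioxidant response element searched, TGACNNNGC and TGAGNNNGC on both strands, in capitals. Gstm7 has 2 overlapping windows, of which the one with a match is shown. The windows are Nfe2l2 at chr2:75704614-75704913 on the minus strand, Srxn1 at chr2:152105274-152105573 on the plus strand, Nqo1 at chr8:107403156-107403455 on the minus strand and Gstm7 at chr3:107931565-107931864 on the minus strand.
Nfe2l2: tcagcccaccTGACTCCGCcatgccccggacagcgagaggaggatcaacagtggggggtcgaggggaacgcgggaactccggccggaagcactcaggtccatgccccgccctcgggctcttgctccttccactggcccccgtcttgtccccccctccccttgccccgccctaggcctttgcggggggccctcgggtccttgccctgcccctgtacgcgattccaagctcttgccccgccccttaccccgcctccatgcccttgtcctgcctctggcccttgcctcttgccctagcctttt
Srxn1: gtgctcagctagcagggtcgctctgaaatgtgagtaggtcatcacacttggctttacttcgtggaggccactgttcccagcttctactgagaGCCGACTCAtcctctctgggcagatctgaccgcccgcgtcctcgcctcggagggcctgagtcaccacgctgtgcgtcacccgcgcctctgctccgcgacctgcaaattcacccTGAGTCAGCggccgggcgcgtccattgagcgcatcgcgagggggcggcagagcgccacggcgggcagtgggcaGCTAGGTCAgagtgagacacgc
Nqo1: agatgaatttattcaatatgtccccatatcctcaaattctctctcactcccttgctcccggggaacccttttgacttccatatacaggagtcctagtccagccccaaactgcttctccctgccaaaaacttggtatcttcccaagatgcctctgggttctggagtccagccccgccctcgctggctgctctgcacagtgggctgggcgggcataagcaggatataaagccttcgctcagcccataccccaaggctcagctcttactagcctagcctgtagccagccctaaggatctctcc
Gstm7: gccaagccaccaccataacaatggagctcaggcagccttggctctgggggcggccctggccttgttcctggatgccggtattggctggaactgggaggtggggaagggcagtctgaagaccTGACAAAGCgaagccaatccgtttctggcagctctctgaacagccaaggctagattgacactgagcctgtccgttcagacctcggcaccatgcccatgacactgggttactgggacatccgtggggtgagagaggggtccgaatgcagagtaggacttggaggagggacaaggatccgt

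Counted from the start site at 0, the Nfe2l2 window held TGACTCCGC at -240 and the Gstm7 window TGACAAAGC at -129. Srxn1 held 3 matches, GCCGACTCA at -158 and GCTAGGTCA at 28 on the other strand and TGAGTCAGC at -45, whose first letters, TGAGTCA, are also an AP-1 site. Among the windows not printed, Gclm held GCACCGTCA at -134 and 1 of the 3 Txnrd1 windows held GCTTTGTCA at -92, both on the other strand. Neither Nqo1 nor Gss had a match in its window. For comparison, 12.4% of all 32851 windows of this length held TGACNNNGC, 17.6% held TGAGNNNGC and 27.8% held either. The E-box CACGTG (7.15% of all windows) and the D-box TTANGTAA (2.32% of all windows) were found in none of the 10 windows. A match of letters does not show a bound site, and elements outside these windows were not searched.

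Gstm7, Srxn1 and Nqo1 rose in CBK hearts and again in CBK/CEK hearts, and none of the 10 genes was called in CEK or Cre CON hearts. A gene was called at an adjusted p under 0.05 in edgeR's quasi-likelihood test, adjusted by Benjamini-Hochberg over all 16623 genes. Because the 10 genes were chosen with earlier results of these data known, their counts beside the shares over all genes are not a test. In CBK against BMAL1 FLOX, 3 of the 10 genes were called higher and 0 lower, where 4.05% of all genes tested were called higher and 4.35% lower. In CBK/CEK against BMAL1/E4BP4 FLOX, the same 3 genes were called higher and 0 lower, where 2.97% of all genes were called higher and 2.9% lower. In CEK against E4BP4 FLOX, edgeR called 0 of the 10 genes, where 0.307% of all genes were called (0.156% higher and 0.15% lower). An unadjusted p under 0.05 in edgeR was seen for 2 of the 10, beside 1892 of all 16623 genes. Cre CON against WT likewise gave 0 called genes of the 10 in edgeR, where 0.018% of all genes were called (0.00602% higher and 0.012% lower). Here 1 of the 10 had an unadjusted p under 0.05 in edgeR, beside 606 of all 16623 genes. DESeq2 also called 0 of the 10 genes in each of these 2 lines. Groups without overlap gave a like picture. In CBK, 3 of the 10 genes lay wholly above the littermates and 0 wholly below, where 2.05% of all genes did so upward and 2.15% downward. In CBK/CEK these were 2 and 0 genes, where 1.91% did so upward and 1.61% downward. In CEK they were 0 and 1, where 0.367% did so upward and 0.403% downward, and in Cre CON 0 and 0, where 0.361% did so upward and 0.247% downward. The median log2 fold change of the 10 genes was 0.19 in CBK, 0.28 in CBK/CEK, -0.07 in CEK and 0.03 in Cre CON, beside -0.00059, -0.019, 0.017 and -0.0098 over all genes tested. Positive fold changes were seen for 9 of the 10 genes in CBK, 10 in CBK/CEK, 3 in CEK and 6 in Cre CON. Over all 16623 genes these counts were 8291, 7779, 8831 and 7827.

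**Figure D1:**
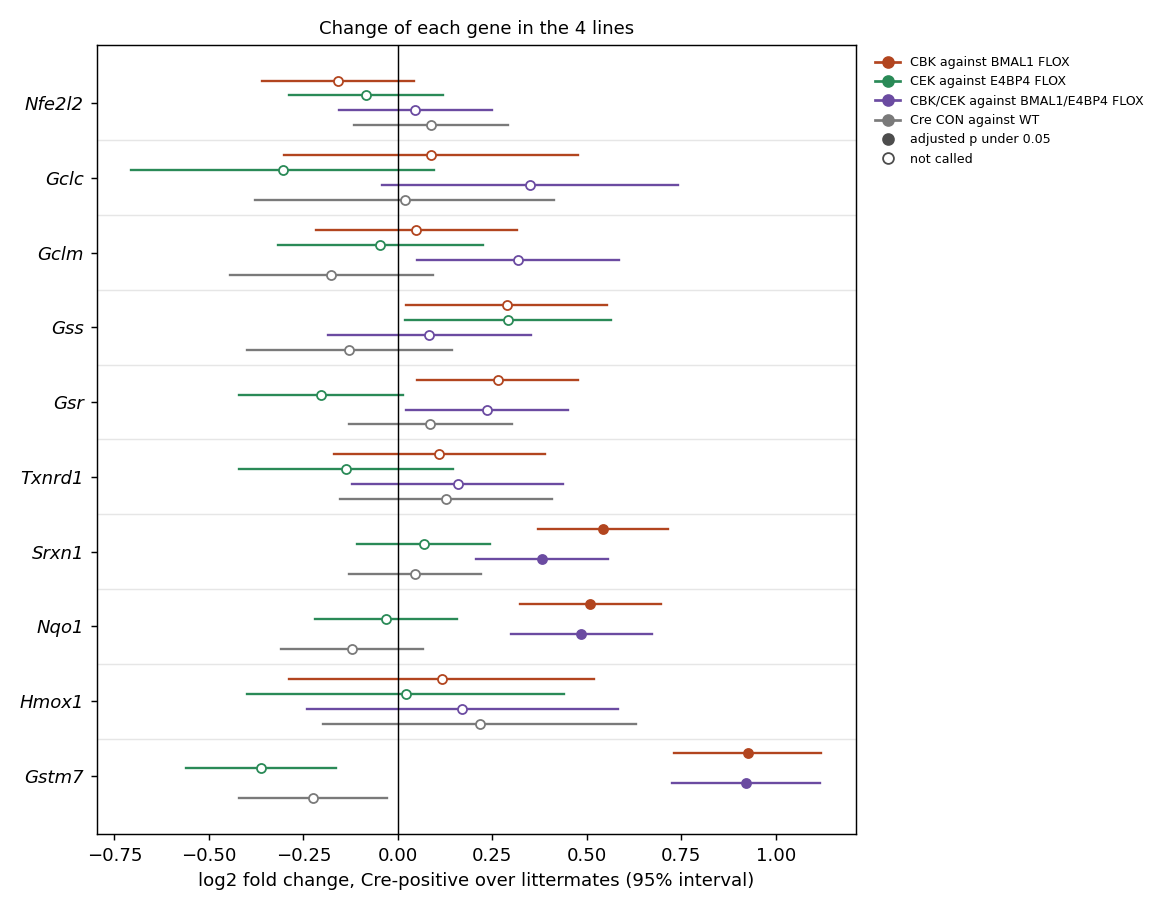
Log2 fold change of each of the 10 genes (rows) in the 4 lines (colours), Cre-positive mice over littermates, with 95% intervals from the edgeR fit; filled points were called at an adjusted p under 0.05. The filled points are those of Srxn1, Nqo1 and Gstm7 in CBK and in CBK/CEK, from 0.38 to 0.93.

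The transcript of the regulator itself, Nfe2l2, was not called in any line. In CBK hearts Nfe2l2 ranged from 31.5 to 68.0 CPM with a median of 59.3 CPM, against 52.8 to 67.5 CPM with a median of 64.2 CPM in BMAL1 FLOX hearts. The groups overlapped, and the low end of the CBK group was a single library, replicate 5 at 31.5 CPM. The log2 fold change was -0.16 in CBK (95% interval -0.36 to 0.04; edgeR adjusted p = 0.433), and -0.020 without that library. In CEK it was -0.08 (95% interval -0.29 to 0.12), in CBK/CEK 0.05 (-0.16 to 0.25) and in Cre CON 0.09 (-0.11 to 0.29). These intervals bear on the amount of the RNA, while NRF2 is known to be controlled largely through the stability of the protein, which was not measured.

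Glutathione is made in a pair of steps, first by glutamate-cysteine ligase, whose catalytic subunit is Gclc and whose modifier subunit is Gclm, and then by glutathione synthetase, Gss. None of these genes was called in any line. In CBK/CEK, the line with the highest fold changes of both ligase subunits, Gclc ranged from 9.65 to 14.4 CPM with a median of 12.8 CPM, against 6.40 to 13.3 CPM with a median of 10.1 CPM in BMAL1/E4BP4 FLOX. The groups overlapped, and the log2 fold change was 0.35 ± 0.19 (SE; edgeR adjusted p = 0.397). Gclm stood at 24.2 to 33.2 CPM with a median of 27.9 CPM in CBK/CEK, against 15.5 to 26.6 CPM with a median of 22.8 CPM in BMAL1/E4BP4 FLOX. These groups overlapped too, and the log2 fold change was 0.32 ± 0.13 (SE; edgeR adjusted p = 0.188). In CBK the fold changes were smaller, 0.09 (95% interval -0.30 to 0.48) for Gclc and 0.05 (-0.22 to 0.31) for Gclm on the log2 scale. In CEK, Gclc had a log2 fold change of -0.31 (95% interval -0.71 to 0.10) and Gclm one of -0.05 (-0.32 to 0.22).

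Gss ranged from 11.999 to 24.7 CPM with a median of 14.2 CPM in CBK, against 11.1 to 16.2 CPM with a median of 12.6 CPM in BMAL1 FLOX. The highest CBK value came from replicate 5, and the other 5 lay within 11.999 to 17.8 CPM. Its log2 fold change was 0.29 ± 0.13 (SE) in CBK (edgeR adjusted p = 0.212), and 0.15 without replicate 5. In CEK it was 0.29 ± 0.14 (SE; edgeR adjusted p = 0.386), and 0.21 to 0.33 with single libraries left out. In the annotation used for names, Gss exons overlap exons of Acss2, Gssos1 and Gssos2 on the opposite strand, and 10.3% of its 50-base stretches also occur in other genes. For Gclm that share was 4.58%. Its exons overlap those of Gm17494 on the opposite strand and, over 244 bases or 3.88% of its exon length, those of Gm6061 on the same strand, which strand-aware counting would not separate. The labels used here do not give the strandedness of the counting, so the values of these 2 genes are uncertain to that extent, and the share was at most 0.532% for the other 8 genes.

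Of the genes that recycle thiols, Srxn1 rose in both lines that carry the floxed Bmal1 gene with Cre, and Gsr and Txnrd1 were not called. Srxn1 encodes sulfiredoxin, which repairs over-oxidized peroxiredoxins. In CBK it ranged from 26.9 to 39.3 CPM with a median of 31.1 CPM, against 20.02 to 24.4 CPM with a median of 21.7 CPM in BMAL1 FLOX. No CBK library fell within the range of its littermates. Srxn1 rose by 0.54 ± 0.09 on the log2 scale (SE; 1.46-fold; edgeR adjusted p = 4.81e-06). In CBK/CEK it ranged from 25.4 to 30.8 CPM with a median of 27.7 CPM, against 19.2 to 23.1 CPM with a median of 21.8 CPM in BMAL1/E4BP4 FLOX. These groups did not overlap either, and Srxn1 rose by 0.38 ± 0.09 (SE; 1.30-fold; edgeR adjusted p = 0.00222). The log2 fold change of Srxn1 was 0.07 (95% interval -0.11 to 0.24) in CEK and 0.05 (-0.13 to 0.22) in Cre CON.

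Gsr encodes glutathione reductase, which regenerates reduced glutathione with NADPH. In CBK it ranged from 16.5 to 25.0 CPM with a median of 22.1 CPM, against 15.1 to 19.7 CPM with a median of 18.2 CPM in BMAL1 FLOX. All CBK libraries but replicate 5 lay above the highest BMAL1 FLOX library. The log2 fold change was 0.26 ± 0.11 (SE; edgeR adjusted p = 0.128). It was called without CBK replicate 5 (0.35; edgeR adjusted p = 0.0243) and without the 5 libraries of outlying composition (0.37; edgeR adjusted p = 0.0114). In CBK/CEK the log2 fold change of Gsr was 0.24 ± 0.11 (SE; edgeR adjusted p = 0.241), with 18.7 to 23.1 CPM in CBK/CEK and 15.3 to 20.4 CPM in BMAL1/E4BP4 FLOX. In CEK it was -0.20 (95% interval -0.42 to 0.01).

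Txnrd1 encodes the cytosolic thioredoxin reductase. It ranged from 31.5 to 62.6 CPM with a median of 45.7 CPM in CBK, against 36.3 to 58.1 CPM with a median of 41.4 CPM in BMAL1 FLOX. In CBK/CEK it ranged from 37.8 to 61.3 CPM, against 30.0 to 55.0 CPM in BMAL1/E4BP4 FLOX. The groups overlapped widely in both lines, and the log2 fold change was 0.11 (95% interval -0.17 to 0.39) in CBK and 0.16 (-0.12 to 0.44) in CBK/CEK.

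**Figure D2:**
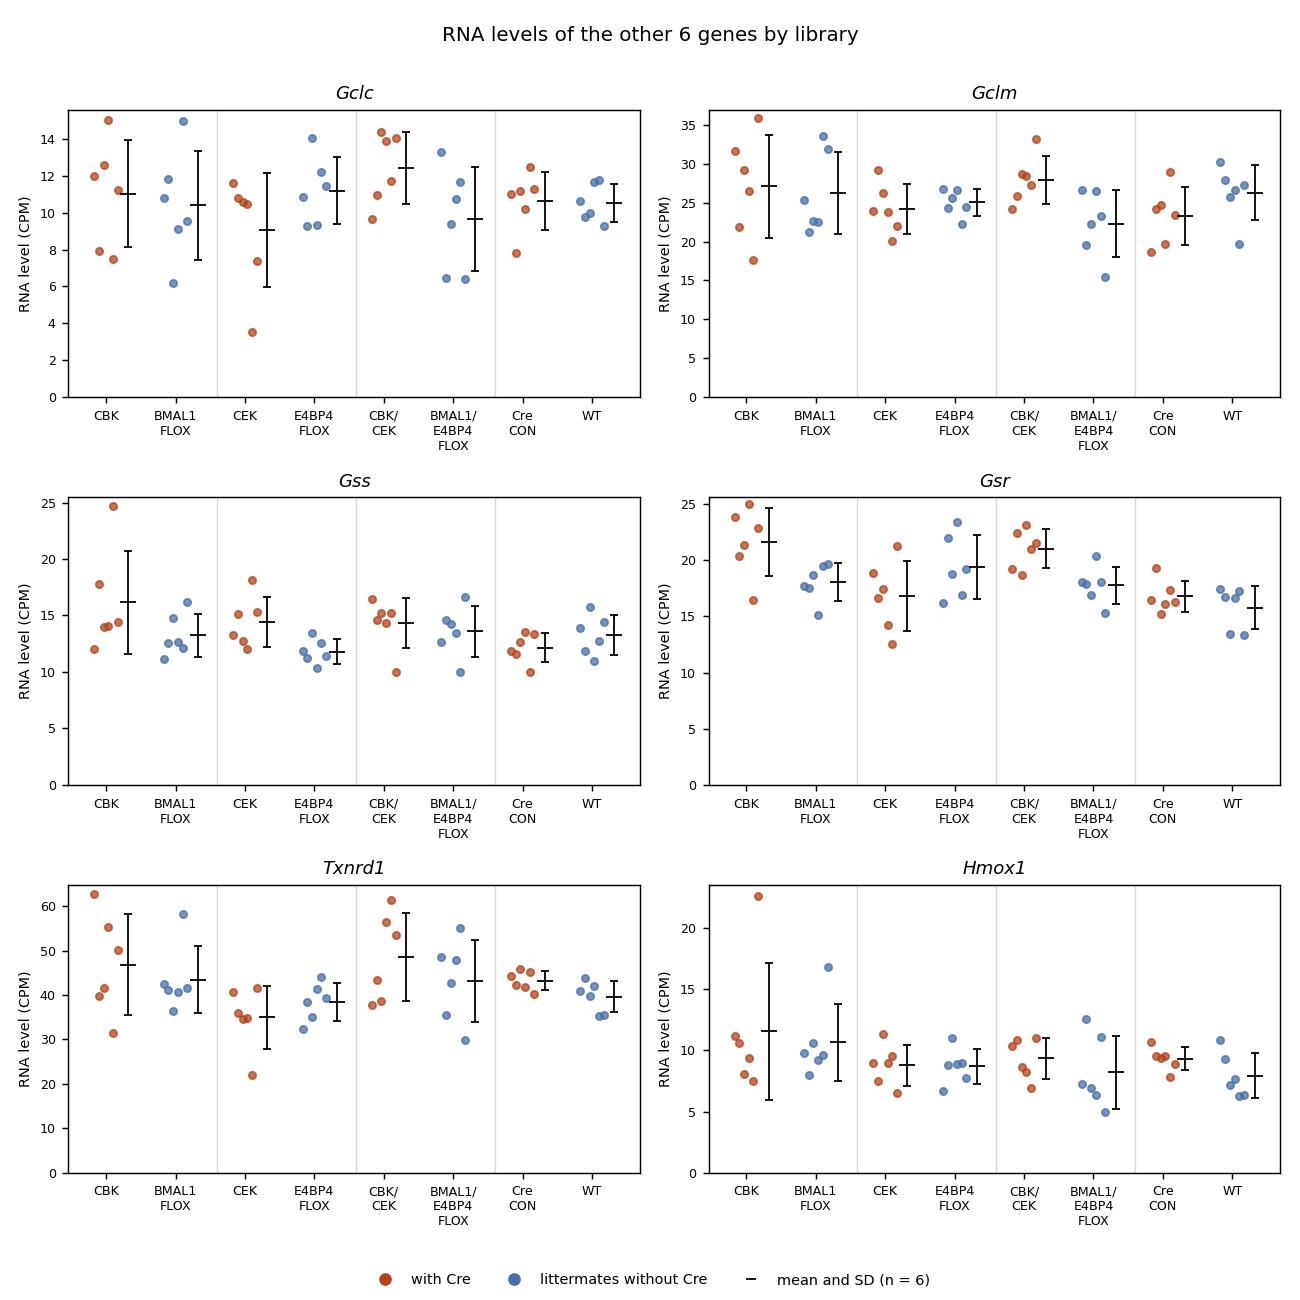
RNA level in CPM of Gclc, Gclm, Gss, Gsr, Txnrd1 and Hmox1 in each of the 48 libraries, by group; points are libraries and bars the mean and SD of 6. Cre-positive groups and their littermates overlap in every panel, and single libraries stand apart, such as Gss at 24.7 CPM and Hmox1 at 22.6 CPM in CBK.

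Nqo1 encodes a quinone reductase that is widely used as a readout of NRF2 activity. In CBK it ranged from 71.7 to 90.1 CPM with a median of 79.9 CPM, against 53.4 to 59.5 CPM with a median of 56.5 CPM in BMAL1 FLOX. The groups did not overlap, and the CBK libraries fell into 3 between 71.7 and 72.04 CPM and 3 between 87.8 and 90.1 CPM. Nqo1 rose by 0.51 ± 0.09 on the log2 scale (SE; 1.42-fold; edgeR adjusted p = 6.34e-05). In CBK/CEK it ranged from 64.6 to 88.6 CPM with a median of 85.0 CPM, against 45.7 to 71.3 CPM with a median of 57.3 CPM in BMAL1/E4BP4 FLOX. The lowest CBK/CEK library lay below the highest littermate, and Nqo1 rose by 0.49 ± 0.09 (SE; 1.40-fold; edgeR adjusted p = 2.14e-04). Its log2 fold change was -0.03 (95% interval -0.22 to 0.16) in CEK and -0.12 (-0.31 to 0.07) in Cre CON.

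Hmox1 encodes heme oxygenase, which is induced by NRF2 and by heme. It ranged from 7.50 to 22.6 CPM with a median of 9.99 CPM in CBK, against 7.98 to 16.8 CPM with a median of 9.70 CPM in BMAL1 FLOX. In each of these groups replicate 6 stood far above the other 5 libraries, and the groups overlapped. The log2 fold change was 0.12 (95% interval -0.29 to 0.52) in CBK, 0.17 (-0.24 to 0.58) in CBK/CEK, 0.02 (-0.40 to 0.44) in CEK and 0.22 (-0.20 to 0.63) in Cre CON. Hmox1 and Gclc had the widest intervals of the 10 genes in these 4 lines.

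Gstm7, a cytosolic glutathione transferase of the mu class, showed the largest change of the 10 genes. In CBK it ranged from 65.1 to 107 CPM with a median of 83.1 CPM, against 40.7 to 47.9985 CPM with a median of 44.7 CPM in BMAL1 FLOX. The groups were far apart, and Gstm7 rose by 0.93 ± 0.10 on the log2 scale (SE; 1.90-fold; edgeR adjusted p = 2.40e-10). In CBK/CEK it ranged from 68.8 to 86.3 CPM with a median of 76.9 CPM, against 31.8 to 52.5 CPM with a median of 39.9 CPM in BMAL1/E4BP4 FLOX. These groups did not overlap, and Gstm7 rose by 0.92 ± 0.10 (SE; 1.89-fold; edgeR adjusted p = 5.23e-10). In CEK it ranged from 27.4 to 36.0 CPM with a median of 32.6 CPM, against 36.2 to 45.3 CPM with a median of 41.9 CPM in E4BP4 FLOX. The CEK libraries all lay below their littermates, but the log2 fold change of -0.36 ± 0.10 (SE) was not called (edgeR adjusted p = 0.0805). The alternatives to that fit gave adjusted p from 0.0530 to 0.192, and none called it. In Cre CON it ranged from 29.6 to 40.1 CPM with a median of 32.6 CPM, against 37.1 to 43.6 CPM with a median of 39.3 CPM in WT. The log2 fold change there was -0.22 (95% interval -0.42 to -0.03), with an unadjusted p of 0.0262 and an edgeR adjusted p of 1.

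**Figure D3:**
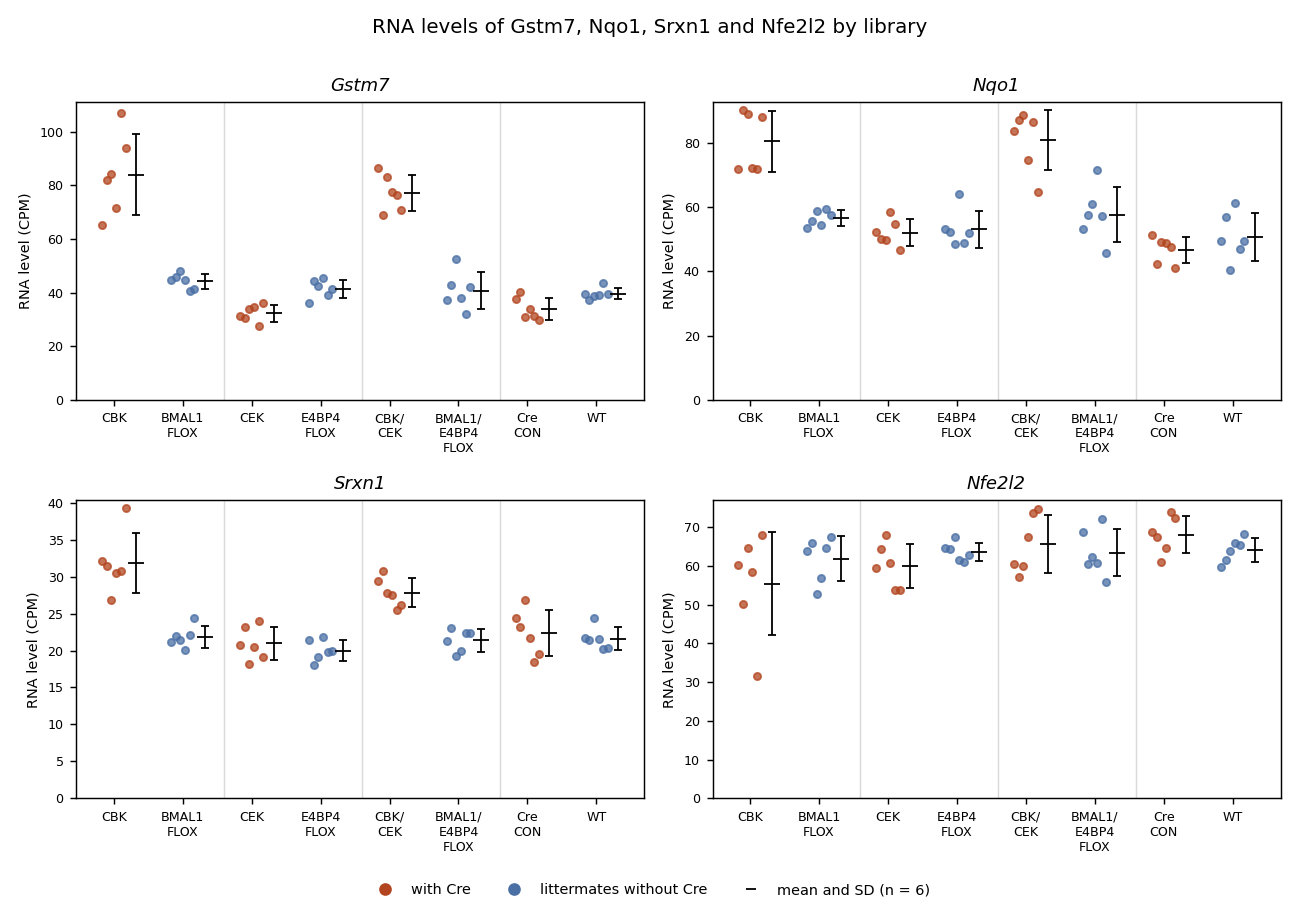
RNA level in CPM of Gstm7, Nqo1, Srxn1 and Nfe2l2 in each of the 48 libraries, by group; points are libraries and bars the mean and SD of 6. Gstm7, Nqo1 and Srxn1 stand highest in CBK and CBK/CEK, whereas Nfe2l2 lies between 31.5 and 74.8 CPM with no such split.

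Gstm7 lies in a cluster of mu-class genes in the order Gstm5, Gstm7, Gstm6, Gstm3, Gstm2, Gstm1 and Gstm4 in the annotation used for names. Its direct neighbour Gstm6 was called in CBK/CEK, with 4.73 ± 0.743 CPM against 2.32 ± 0.606 CPM in BMAL1/E4BP4 FLOX (SD, n = 6 each). Gstm6 rose by 1.05 ± 0.26 on the log2 scale there (SE; edgeR adjusted p = 0.00533), and its log2 fold change of 0.48 ± 0.25 in CBK was not called (edgeR adjusted p = 0.295). Gstm5 on the other side had log2 fold changes of 0.40 ± 0.18 in CBK and 0.18 ± 0.18 in CBK/CEK, Gstm2 of 0.18 ± 0.13 and 0.30 ± 0.13, Gstm4 of 0.11 ± 0.13 and 0.26 ± 0.13 and Gstm1 of -0.19 ± 0.09 and -0.13 ± 0.09 (SE), and none of these was called. Gstm3 did not pass the filter on low counts.

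The differences between line effects were tested directly, as the log2 fold change of 1 line minus that of another. Compared with the effect of Cre alone, the CBK effect was larger for Gstm7 by 1.15 ± 0.14 (SE; edgeR adjusted p = 3.96e-08), for Nqo1 by 0.63 ± 0.13 (edgeR adjusted p = 0.00191) and for Srxn1 by 0.50 ± 0.12 (edgeR adjusted p = 0.0112). These were 3 of the 10 genes, where 2.47% of all genes were called in either direction, 1.25% higher and 1.22% lower. The Srxn1 difference was not called in a fit without the filter on low counts (edgeR adjusted p = 0.0613). The CBK/CEK effect exceeded the Cre effect for Gstm7 by 1.15 ± 0.14 (SE; edgeR adjusted p = 9.46e-08) and for Nqo1 by 0.61 ± 0.13 (edgeR adjusted p = 0.0045), 2 of the 10 genes where 1.34% of all genes were called, 0.764% higher and 0.578% lower. For Srxn1 this difference was 0.34 ± 0.12 (SE; edgeR adjusted p = 0.265). Both comparisons share the Cre CON and WT libraries.

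The CBK/CEK effect also exceeded the CEK effect, for Gstm7 by 1.28 ± 0.14 (SE; edgeR adjusted p = 3.19e-09) and for Nqo1 by 0.52 ± 0.13 (edgeR adjusted p = 0.0224), 2 of the 10 genes where 2.03% of all genes were called, 1.14% higher and 0.896% lower. Between the CBK/CEK and the CBK effects edgeR called 0 of the 10 genes, where 0.162% of all genes were called (0.144% higher and 0.018% lower). DESeq2 called 0 as well. In edgeR 0 of the 10 had an unadjusted p under 0.05, beside 930 of all 16623 genes. The difference was -0.0041 (95% interval -0.28 to 0.27) for Gstm7, -0.024 (-0.29 to 0.24) for Nqo1 and -0.16 (-0.41 to 0.08) for Srxn1. Differences within these intervals remain possible with 6 mice a group. Between the CEK and the Cre effects edgeR and DESeq2 each called 0 of the 10 genes, where edgeR called 0.00602% of all genes. The unadjusted p of this difference in edgeR was under 0.05 for 1 gene, Gss, beside 648 of all 16623 genes. For Gstm7, whose fold changes were negative in both lines, that difference was -0.14 (95% interval -0.42 to 0.14).

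**Figure D4:**
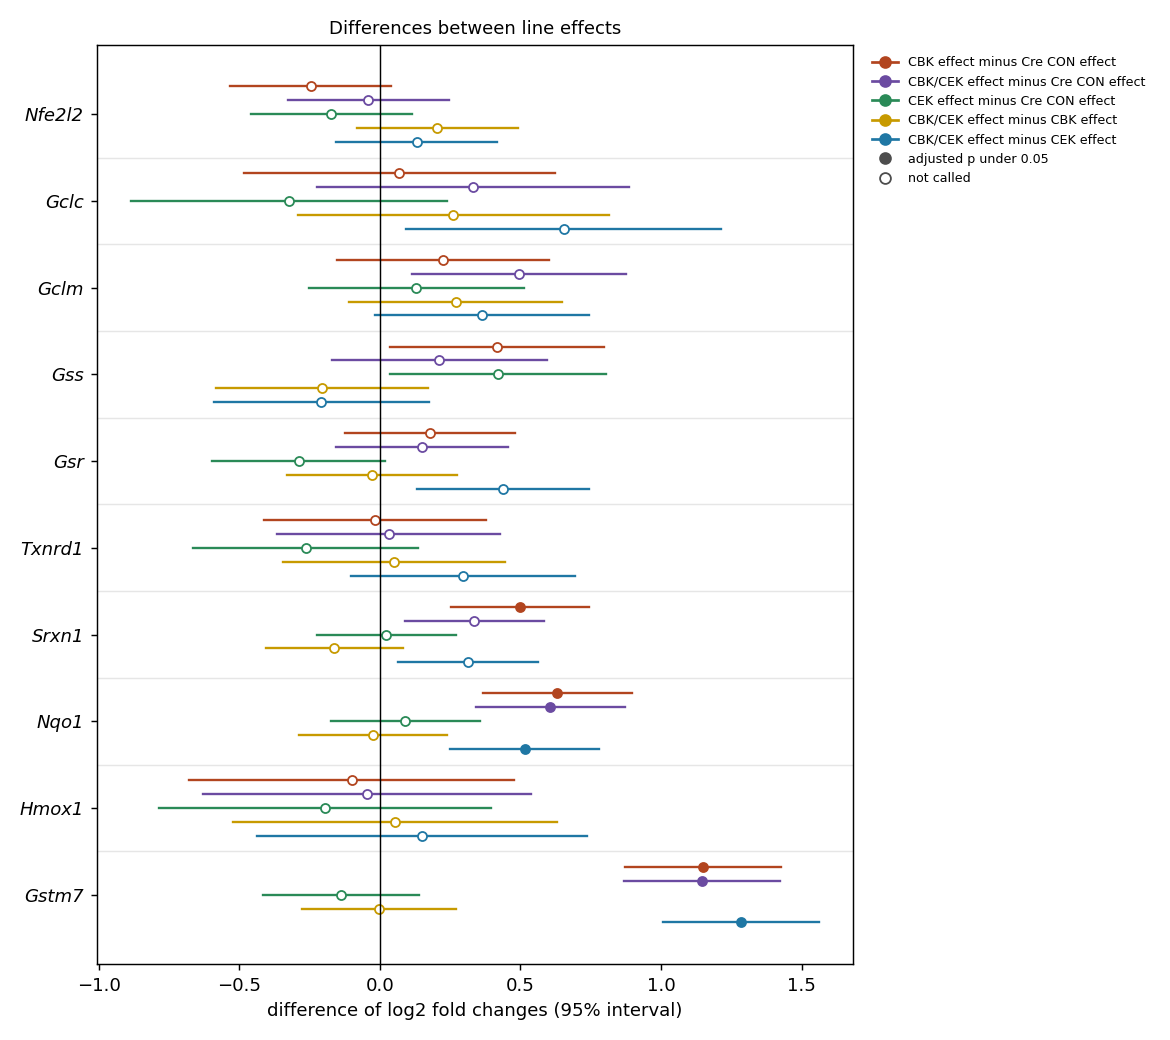
Difference between the log2 fold changes of a pair of lines for each of the 10 genes, with 95% intervals from the edgeR fit; filled points were called at an adjusted p under 0.05. The Gstm7 differences of CBK and of CBK/CEK from Cre CON, both 1.15, lie far from 0, and that between CBK/CEK and CBK lies at -0.0041.

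Over the 8 groups, the order of mean Gstm7 levels was CBK (83.98 CPM), CBK/CEK (77.1 CPM), BMAL1 FLOX (44.2 CPM), E4BP4 FLOX (41.4 CPM), BMAL1/E4BP4 FLOX (40.7 CPM), WT (39.6 CPM), Cre CON (33.9 CPM) and CEK (32.2 CPM). The ranges of neighbours in this order overlapped except between CBK/CEK and BMAL1 FLOX. For Nqo1 the order was CBK/CEK (80.8 CPM), CBK (80.4 CPM), BMAL1/E4BP4 FLOX (57.6 CPM), BMAL1 FLOX (56.5 CPM), E4BP4 FLOX (53.0 CPM), CEK (51.9 CPM), WT (50.7 CPM) and Cre CON (46.6 CPM). Here CBK and BMAL1/E4BP4 FLOX were barely separated, 71.7 CPM at the lowest in CBK against 71.3 CPM at the highest in BMAL1/E4BP4 FLOX, and the other neighbours overlapped. Srxn1 was highest in CBK (31.8 CPM) and CBK/CEK (27.8 CPM) and lay between 20.003 and 22.3 CPM on average in the other 6 groups, and all neighbours overlapped. For the other 7 genes the highest group mean was 1.23 to 1.46 times the lowest, against 2.60 times for Gstm7, 1.73 times for Nqo1 and 1.59 times for Srxn1.

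Levels of different genes were compared roughly, per kilobase of summed exon length, the union of all annotated exons. That length can exceed that of the transcript expressed, which lowers the value. Nqo1 stood highest with a mean of 38.4 CPM per kb over the 48 libraries, followed by Gstm7 with 30.7 and Nfe2l2 with 16.5 CPM per kb. Srxn1 followed with 8.33, Gsr with 6.69, Txnrd1 with 5.96 and Hmox1 with 5.32 CPM per kb. On this scale the genes of glutathione synthesis were the lowest, at 4.02 CPM per kb for Gclm, 2.82 for Gclc and 2.30 for Gss.

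Pearson's r of log2(CPM + 0.5) over the 48 libraries describes how levels of the 10 genes varied together. The points share library preparation, depth and the composition of each library. After the mean of each line was removed, Nqo1 and Gstm7 had an r of 0.71, Nqo1 and Srxn1 0.63 and Srxn1 and Gstm7 0.63. Within groups, after the mean of each group was removed, the same pairs had an r of 0.08, 0.11 and -0.12. Also within groups, Gclc and Txnrd1 had an r of 0.67, Nfe2l2 and Gclm 0.65, Gsr and Txnrd1 0.63 and Nfe2l2 and Gclc 0.56. Gss ran opposite to them, with an r of -0.66 with Nfe2l2 and -0.65 with Txnrd1.

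The mitochondrial share of counts moved with several of these genes within groups, with an r of 0.55 for Nfe2l2, 0.51 for Gclc, 0.41 for Nqo1 and -0.55 for Gss. Its part in these values was not tested. CBK replicate 5, with the lowest mitochondrial share of its group at 9.55%, had the lowest Nfe2l2 (31.5 CPM), Gclc (7.50 CPM), Gclm (17.6 CPM), Gsr (16.5 CPM) and Txnrd1 (31.5 CPM) of the CBK libraries and the highest Gss (24.7 CPM) and Gstm7 (107 CPM). CEK replicate 5 had the lowest Gclc (3.51 CPM), Gclm (20.02 CPM), Gsr (12.6 CPM), Txnrd1 (22.0 CPM) and Gstm7 (27.4 CPM) of its group and the highest Gss (18.1 CPM). Its mitochondrial share was 18.4%, and the lowest share in CEK was that of replicate 6, at 15.9%. CEK replicate 6 had the highest Gsr (21.3 CPM), Txnrd1 (41.5 CPM) and Gstm7 (36.0 CPM) of CEK. The 5 libraries of outlying composition include CBK replicate 5 and CEK replicate 5. Without those 5, Gstm7, Nqo1 and Srxn1 were still called in CBK and in CBK/CEK, and Gsr was added in CBK as given above.

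Genes with the pattern most like the called ones were ranked by Pearson's r over the 48 libraries, after the mean of each line was removed, among 9799 genes with a mean of at least 5 CPM. Nearest to Gstm7 were Agpat3, an acyltransferase of phospholipid synthesis (r = 0.91), Slc41a3, a magnesium transporter (0.86), and Thra, a thyroid hormone receptor (0.85). Slc41a3 itself had log2 fold changes of 2.93 ± 0.15 in CBK and 2.91 ± 0.15 in CBK/CEK (SE), much larger than those of Gstm7, and of -0.10 ± 0.14 in CEK. Srxn1 was most like Tnfrsf12a, a cytokine receptor (r = 0.83), Scx, a transcription factor of tendon and connective tissue (0.82), and Ckb, a creatine kinase (0.81). Nqo1 was like Klhl31, a kelch family gene of muscle (r = 0.79), and Scx (0.75). The points share their libraries and the difference between Cre groups and littermates.

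Markers on the cell type lists differed between some groups as well. Of the 7 mural cell markers (pericytes and smooth muscle), Abcc9 was called lower in CBK (-0.77 ± 0.12 on the log2 scale, SE; edgeR adjusted p = 7.98e-06) and in CBK/CEK (-0.70 ± 0.12; edgeR adjusted p = 6.82e-05), and Acta2 was called higher in CBK/CEK (0.89 ± 0.24; edgeR adjusted p = 0.0137). In Cre CON the log2 fold change of Acta2 was 0.96 ± 0.24 (SE), without overlap with WT but not called (edgeR adjusted p = 0.1995), and that of Myh11 was 0.73 ± 0.30. The 7 mural markers had a median of 0.011 in Cre CON, with 4 of them above 0. Kdr of the endothelial list and Pln of the heart muscle list were called lower in CBK, and no marker was called in CEK or Cre CON. The summed level of the mural markers was 622 to 874 CPM in CBK against 927 to 1009 CPM in BMAL1 FLOX, without overlap. That sum includes Abcc9, the only mural marker called in CBK. All 7 mural markers had fold changes below 0 in CBK, with a median of -0.14 on the log2 scale. Whether the fall of Abcc9 came from mural cells was not tested. The endothelial sum was 864 to 1174 CPM in CBK against 1016 to 1372 CPM in BMAL1 FLOX, and the macrophage sum 243 to 429 CPM against 265 to 354 CPM. In CBK/CEK the mural sum was 846 to 1060.5 CPM, against 880 to 1108 CPM in BMAL1/E4BP4 FLOX. In CEK, where all Gstm7 values lay below those of the littermates, the macrophage sum was 245 to 330.2 CPM against 182 to 305 CPM in E4BP4 FLOX. All 7 macrophage markers had fold changes above 0 in CEK, with a median of 0.38 on the log2 scale, among them Lyz2 at 0.54 and Mrc1 at 0.43. In Cre CON, where none of the 10 genes was called, the macrophage sum was 301 to 438 CPM against 249 to 285 CPM in WT, and the fibroblast sum 1210.2 to 1534 CPM against 948 to 1219 CPM in WT. The 7 macrophage markers had a median log2 fold change of 0.38 there too, and the fibroblast markers Col3a1 and Col1a2 had 0.70 and 0.39, without overlap between groups. All 7 fibroblast markers together had a median of 0.097 in Cre CON, with 6 of them above 0 and the lowest at -0.19. Over all libraries the summed levels were 238 to 1285 CPM for erythroid, 54.8 to 2821 CPM for atrial, 1.39 to 62.6 CPM for adipocyte and 3.91 to 9.49 CPM for lymphocyte markers, and no marker of these lists was called. No heart muscle, fibroblast, endothelial, mural or macrophage marker was at 0 throughout a group. The part of these cells in the levels of Gstm7, Nqo1 and Srxn1 was not tested.

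Among other genes of the pathway the changes went both ways, as they did over all genes. The list held 106 genes in 6 groups, of which 102 were tested: sensors and partners of NRF2, glutathione supply and breakdown, glutathione transferases, peroxidases with thioredoxins and dismutases, NADPH supply, and other NRF2 targets. The list too was chosen with earlier results of these data known. In CBK, 6 of the 102 were called higher and 5 lower, together 10.8%, beside 8.4% of all genes tested (4.05% higher and 4.35% lower). That count of 11 was 7 without BMAL1 FLOX replicate 1, 16 without CBK replicate 5 and 7 with the 12 libraries of the line alone. In CBK/CEK, 3 were called higher and 7 lower, together 9.8%, beside 5.87% of all genes (2.97% higher and 2.9% lower). In CEK 1 was called, or 0.98%, beside 0.307% of all genes. In Cre CON edgeR called 0, beside 0.018% of all genes, and DESeq2 0. There 9 of the 102 had an unadjusted p under 0.05 in edgeR, beside 606 of all 16623 genes. The median log2 fold change of the list was 0.01 in CBK, -0.05 in CBK/CEK, 0.01 in CEK and -0.07 in Cre CON.

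**Figure D5:**
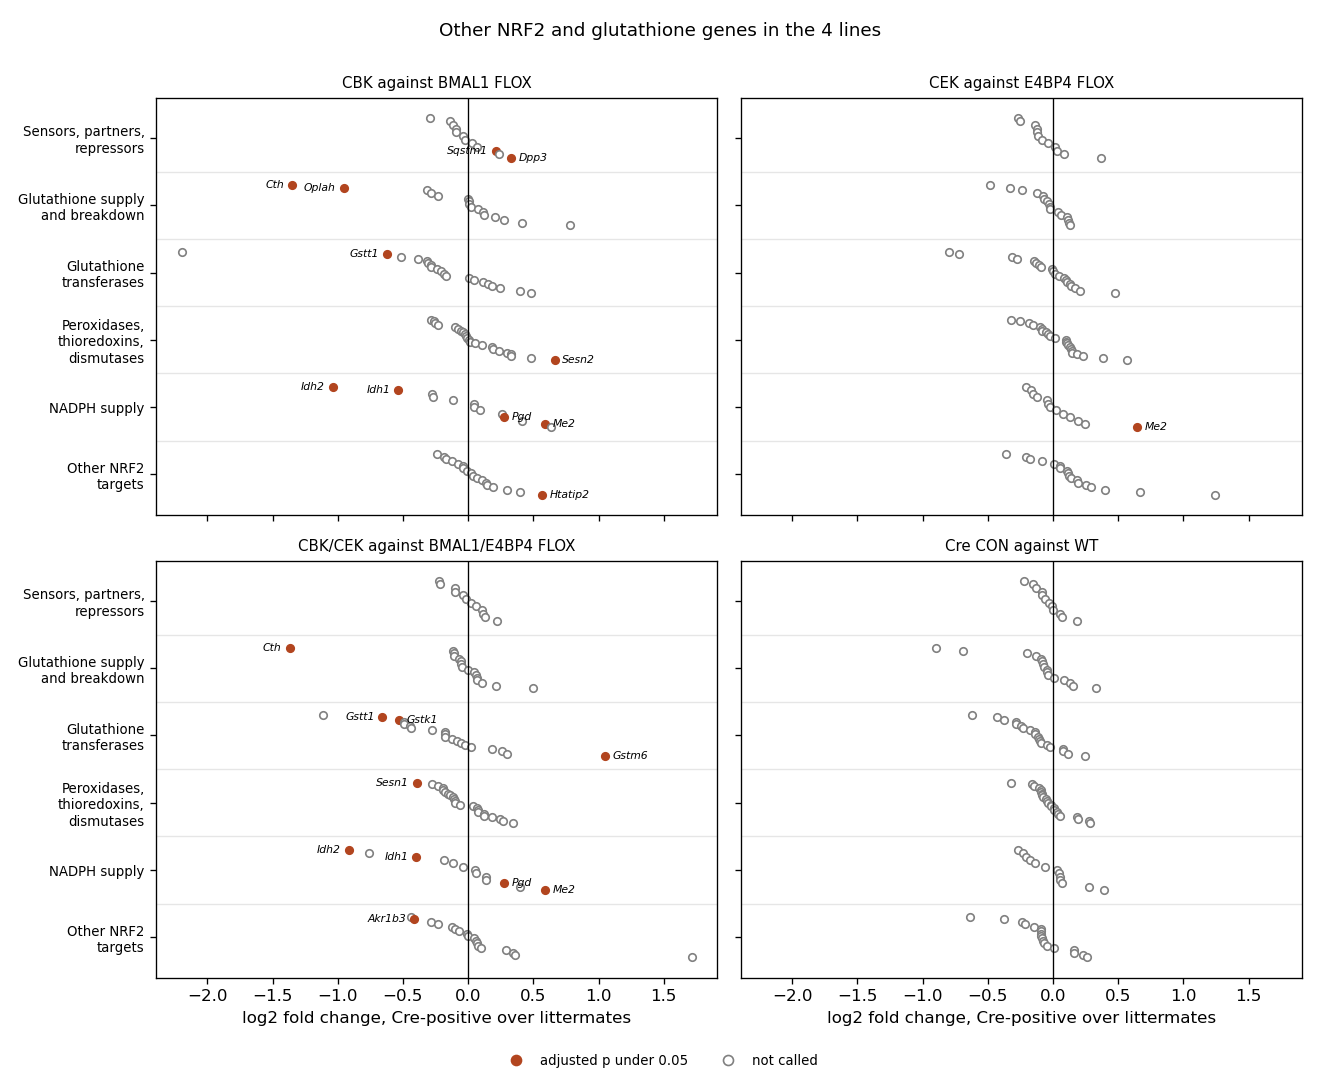
Log2 fold change of 102 other NRF2 and glutathione genes, 1 panel per line and 1 row per group of genes; filled and labelled points were called at an adjusted p under 0.05. In CBK and CBK/CEK called points lie on both sides of 0, from Cth at -1.35 and -1.37 to Sesn2 at 0.66 and Gstm6 at 1.05, and the Cre CON panel has none.

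Of the 5 lower genes in CBK, 2 belonged to glutathione supply and breakdown, 2 to NADPH supply and 1 to the transferases. Of the 7 lower genes in CBK/CEK, 1 belonged to supply and breakdown, 2 to NADPH supply, 2 to the transferases, 1 to the peroxidase group and 1 to the other NRF2 targets. Cth, cystathionine gamma-lyase, which makes cysteine from cystathionine, stood at 0.947 ± 0.633 CPM in CBK against 2.42 ± 0.368 CPM in BMAL1 FLOX, and fell by 1.35 ± 0.34 on the log2 scale (SE; edgeR adjusted p = 0.0043). In CBK/CEK it fell by 1.37 ± 0.34 (SE; edgeR adjusted p = 0.00593). The CBK call was not made in a fit of the 12 libraries of that line alone (edgeR adjusted p = 0.0516). Idh2, the mitochondrial NADP-dependent isocitrate dehydrogenase, is a far more abundant transcript. It stood at 946 ± 111 CPM in CBK against 1944 ± 72.0 CPM in BMAL1 FLOX, and fell by 1.04 ± 0.08 (SE; edgeR adjusted p = 1.31e-14). In CBK/CEK it stood at 1046 ± 100.1 CPM against 1974 ± 253 CPM in BMAL1/E4BP4 FLOX, and fell by 0.92 ± 0.08 (SE; edgeR adjusted p = 1.53e-12). In Cre CON the log2 fold change of Idh2 was -0.27, the lowest of the NADPH supply genes there, and was not called. From that Cre effect the Idh2 effect differed by -0.77 in CBK (edgeR adjusted p = 4.43e-06) and by -0.65 in CBK/CEK (edgeR adjusted p = 1.69e-04). Its cytosolic counterpart Idh1, named after its values were seen, fell by 0.54 ± 0.07 in CBK (edgeR adjusted p = 3.18e-07) and by 0.40 ± 0.07 in CBK/CEK (edgeR adjusted p = 1.48e-04).

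Oplah, the oxoprolinase that returns glutamate from broken-down glutathione, behaved differently in the 2 lines. It stood at 36.3 ± 3.42 CPM in CBK against 70.3 ± 9.99 CPM in BMAL1 FLOX and fell by 0.95 ± 0.10 (SE; edgeR adjusted p = 9.92e-10), but its log2 fold change of 0.10 ± 0.10 in CBK/CEK was not called (edgeR adjusted p = 0.713). The difference between the CBK/CEK and CBK effects was 1.06 ± 0.15 (SE; edgeR adjusted p = 7.01e-06). Among the transferases, Gstt1 of the theta class fell by 0.63 ± 0.17 in CBK (edgeR adjusted p = 0.00849) and by 0.66 ± 0.17 in CBK/CEK (SE; edgeR adjusted p = 0.00772). Gstk1, of the kappa class, fell by 0.53 ± 0.14 in CBK/CEK (SE; edgeR adjusted p = 0.0138), a call that was lost without BMAL1/E4BP4 FLOX replicate 6 (edgeR adjusted p = 0.0588).

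The higher genes came from several groups of the list. Me2, a mitochondrial malic enzyme, rose in CBK by 0.59 ± 0.13 (SE; edgeR adjusted p = 0.00105), in CBK/CEK by 0.59 ± 0.13 (edgeR adjusted p = 0.00167) and in CEK by 0.65 ± 0.14 (edgeR adjusted p = 0.0158). In CEK it stood at 8.35 ± 1.03 CPM against 5.34 ± 0.790 CPM in E4BP4 FLOX, a call that was lost in 5 of 21 alternatives, among them those without CEK replicate 1 (edgeR adjusted p = 0.0567) and without E4BP4 FLOX replicate 4 (edgeR adjusted p = 0.0663). Cre CON hearts averaged 9.02 ± 1.03 CPM of Me2 and WT hearts 6.90 ± 0.755 CPM (SD, n = 6 each), a log2 fold change of 0.39 ± 0.13 that was not called (SE; edgeR adjusted p = 0.817). In CBK, Htatip2, an oxidoreductase gene listed among NRF2 targets, rose by 0.57 ± 0.11 (SE; edgeR adjusted p = 2.93e-04). Sesn2, a stress-induced sestrin, rose by 0.66 ± 0.19 (SE; edgeR adjusted p = 0.0185), which was lost without BMAL1 FLOX replicate 1 (edgeR adjusted p = 0.0783) or 4 (edgeR adjusted p = 0.0505). Dpp3, which binds KEAP1, rose by 0.33 ± 0.10 (SE; edgeR adjusted p = 0.0285), a call lost in 7 of 21 alternatives. Pgd of the pentose phosphate pathway rose in CBK/CEK by 0.27 ± 0.09 (SE; edgeR adjusted p = 0.0447), a call lost in 12 of 21 alternatives.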

How the data were processed

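RNA from the ventricles of 48 mice was harvested with an RNeasy kit, and 1.3 ug of total RNA per library went into a SMARTER mRNA kit, per the labels' protocols. The values are unnormalized gene counts as deposited by the authors. Per the submitters' processing notes, the build was GRCm39 and the tools were HTSeq 0.11.1, STAR 2.7.9a and bcl2fastq 2.18.0.12. The annotation release, the strandedness and the read filters were not stated there. HTSeq's 5 summary lines were left out. Symbols came from GENCODE M21 (build GRCm38) by Ensembl identifier, which matched 52093 of 53700 genes, and exon lengths from the same annotation.

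The filter on low counts was filterByExpr with the 8 groups. With TMM factors, edgeR 4.0.16 under R 4.3.3 estimated 8 group means by robust quasi-likelihood, with 40 residual degrees of freedom. A standard error is the log2 fold change over the square root of its F statistic. Benjamini-Hochberg adjustment ran over all 16623 genes, separately for each of 4 line comparisons and 5 differences between lines. The titles call the samples biological replicates. At the lowest depth, in BMAL1/E4BP4 FLOX replicate 6, 13.1 reads make 1 CPM before TMM factors are applied. With TMM factors fewer reads make 1 CPM in that library, where 463 counts of Nfe2l2 stood for 55.9 CPM. Counting error is largest there.

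Alternatives were RLE scaling, DESeq2 1.42.0, no filter, 1 CPM in 6 libraries, replicate number as a block, sets of animal numbers as a covariate, each line alone, and leaving out libraries. Leaving out single libraries for the differences was added after seeing the data.

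Named pathway genes are, per line and direction, up to 4 called genes with the largest fold change and at least 1 CPM on average in a group. Like genes are the 3 highest correlations per called gene, of which 1 is not reported here. The 10 genes, the lists and the 5 libraries left out were chosen with earlier results of these data known. The steps were tested on simulated counts.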

Additional observations from a re-analysis of the deposited data

Results flagged for a closer look

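In 8 of 80 sets of 6 libraries (10 genes in 8 groups), 1 library stood apart from the other 5 by Dixon's test, where chance gives about 1 in 20. Hmox1 stood at 22.6 CPM in CBK replicate 6, with the nearest other library at 11.1 CPM, and at 16.8 CPM in BMAL1 FLOX replicate 6, with the nearest at 10.6 CPM. Txnrd1 stood at 22.0 CPM in CEK replicate 5, with the nearest at 34.7 CPM, and at 58.1 CPM in BMAL1 FLOX replicate 5, with the nearest at 42.4 CPM. Gss stood at 10.02 CPM in CBK/CEK replicate 6, with the nearest at 14.4 CPM. The remaining values also stood above their groups: Nqo1 at 64.1 CPM in E4BP4 FLOX replicate 4, Srxn1 at 24.4 CPM in WT replicate 3 and Gstm7 at 43.6 CPM in WT replicate 5.

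Effects that differed between lines in edgeR's quasi-likelihood test of the difference were listed as well, all on the log2 scale. For the CBK effect minus the Cre CON effect they were Gstm7 (1.15), Nqo1 (0.63), Srxn1 (0.50), Htatip2 (0.64), Oplah (-0.89) and Idh2 (-0.77). For the CBK/CEK effect minus the Cre CON effect they were Gstm7 (1.15), Nqo1 (0.61) and Idh2 (-0.65). For the CBK/CEK effect minus the CEK effect they were Gstm7 (1.28), Gstm6 (1.36), Nqo1 (0.52), Idh2 (-0.74) and Idh1 (-0.38), of which Gstm6 was lost in 8 and Idh1 in 20 of 32 alternatives. Oplah (1.06) differed between the CBK/CEK and CBK effects.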

How the results depend on the processing

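The 6 calls of Gstm7, Nqo1 and Srxn1 in CBK and CBK/CEK were made in all 21 alternatives each. The log2 fold changes were 0.84 to 1.00 for Gstm7, 0.47 to 0.56 for Nqo1 and 0.47 to 0.63 for Srxn1 in CBK, and 0.86 to 1.009, 0.43 to 0.56 and 0.35 to 0.41 in CBK/CEK. Some uncalled fold changes near 0 turned sign, and the cause was not tested. Without the 5 libraries of outlying composition, Hmox1 was -0.019 and Gclm 0.014 in CEK. With single libraries left out, CBK gave -0.025 to 0.22 for Gclc (also negative at -0.023), -0.048 to 0.16 for Gclm (also negative at -0.0046) and -0.19 to 0.29 for Hmox1. CEK gave -0.069 to 0.092 for Hmox1 (also negative at -0.052, -0.016 and -0.011) and -0.071 to 0.019 for Nqo1, and Cre CON gave -0.033 to 0.092 for Gclc (also negative at -0.0078) and -0.015 to 0.094 for Srxn1. Single libraries left out gave 3 to 4 called genes of the 10 in CBK, 3 in CBK/CEK and 0 in CEK and Cre CON. Of the pathway list they gave 7 (without BMAL1 FLOX replicate 1) to 16 in CBK, 8 to 11 in CBK/CEK, 0 to 1 in CEK and 0 in Cre CON. With the 12 libraries of a line alone the list gave 7 calls in CBK (against 11) and 0 in CEK (against 1), and with no filter 0 in CEK, where the 1 call was Me2.

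It was not settled whether replicate numbers pair the libraries. The deviations of 8 of 24 same-numbered pairs correlated above 0.1 (range -0.39 to 0.50), and 7 of 24 correlated best with their own number. With the replicate block the list gave 0 calls in CEK, and the calls of the 10 genes were as above.

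Over all genes, CBK gave 1396 calls against 871 for the line alone. CEK gave 51, against 142 with DESeq2, 17 with no filter, 25 with the replicate block, 25 for the line alone and 0.294 to 2.49 times the count with a library left out. Cre CON gave 3, against 19 with DESeq2, 6 without the 5 libraries, 10 for the line alone and 1 to 16 with a library left out. CEK minus Cre CON gave 1, against 5 with DESeq2 and 2 with the replicate block or the covariate. RLE scaling moved the median fold change by at most 0.0195.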
